A study of Mus musculus with 40 samples.

Results

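The regions described here are stretches of the mouse genome whose cloned DNA fragments switched on a reporter gene in embryonic stem (ES) cells and were not recovered from reporter-expressing cells at any of 4 later stages of blood development. Fragments of all 40 libraries that overlapped by at least 1 bp were merged into regions. A region was kept when at least 2 different fragments lay in the reporter-positive lists of ES cells and none lay in those of the later stages. This gave 517 ES-only regions of 75060 regions in all (0.689%), and of 17351 regions with any positive fragment in ES cells (2.98%). The regions were chosen by these fragment lists, so their positive counts by stage are given as a description, with no test.

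All libraries came from HM-1 mouse ES cells (129/ola), whose Hprt locus does not work until the incoming reporter repairs it. Fragments cut by the Tn5 transposase from open chromatin of all 5 stages were cloned before a HSP68 minimal promoter and the Venus-YFP gene, mixed, and integrated at Hprt. The cells were analysed as ES cells or after culture in serum to the hemangioblast (HB, sorted for FLK1), hemogenic endothelium 1 (HE1, KIT+ TIE2+ CD41-), hemogenic endothelium 2 (HE2, KIT+ TIE2+ CD41+) and hematopoietic progenitor (HP, KIT+ TIE2- CD41+) stages. Each stage was sorted into Negative, Low, Medium and High YFP gates in 2 replicates, and the Negative gate was set with a reporter that held no cloned fragment. The YFP signal therefore reads a fragment in front of a foreign promoter at 1 locus, not at its own place in the genome. A library lists each fragment once, with no read number, and held 654 to 51146 fragments. The ES positive libraries held 1763 to 10437. The lists do not tell from which stage's chromatin a fragment was cloned, and the identity of the sorted cells cannot be checked against expression here.

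Enhancers are DNA elements that raise transcription from a promoter at a distance by binding sequence-specific transcription factors. ES cells are pluripotent, a state kept by a circuit of factors that includes OCT4, SOX2, NANOG, ESRRB and KLF proteins. These factors bind together at many enhancers, and OCT4 reads an octamer sequence while SOX2 reads a short element often found beside it. On the way to blood this circuit is shut down and GATA, RUNX and PU.1 factors take over regulatory elements. The paper reports TEAD motifs enriched in the hemogenic endothelium, and AP-1 motifs in the stage-specific enhancers of all stages, ES cells included.

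The sequences of 8 ES-only regions are shown as examples. The member with most support over both replicates (nearest to Ppp1r14a) comes first, then the first 3 nearest to pluripotency-associated genes (Jarid2, Mycn, Jarid2). The last 4 are among the 13 regions with an octamer match in the 200 bp around their centre. Hs3st3b1 and Ttyh2 also hold a SOX match and Srcin1 an ESRRB match. No other octamer region holds a SOX or ESRRB match in its central 300 bp. The reporter was given single fragments of a region, not the sequence printed. Matches shown together thus need not have been on 1 fragment. The sequences are GRCm38.p6 reference sequence, at most the central 300 bp of a region, and may differ from the 129 allele that was cloned. Capitals mark matches on either strand to the motifs that are given with the motif results, where CTCF stands by name alone.
Ppp1r14a, chr7:29293718-29294017, plus strand: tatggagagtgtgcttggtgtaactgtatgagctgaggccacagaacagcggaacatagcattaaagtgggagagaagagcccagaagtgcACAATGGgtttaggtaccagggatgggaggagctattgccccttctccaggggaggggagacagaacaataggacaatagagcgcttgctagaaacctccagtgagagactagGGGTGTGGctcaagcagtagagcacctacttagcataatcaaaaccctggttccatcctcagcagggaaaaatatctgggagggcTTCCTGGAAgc
Jarid2, chr13:44678408-44678533, plus strand: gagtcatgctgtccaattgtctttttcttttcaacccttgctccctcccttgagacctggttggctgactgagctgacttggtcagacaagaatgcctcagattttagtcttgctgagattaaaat
Mycn, chr12:12983126-12983299, plus strand: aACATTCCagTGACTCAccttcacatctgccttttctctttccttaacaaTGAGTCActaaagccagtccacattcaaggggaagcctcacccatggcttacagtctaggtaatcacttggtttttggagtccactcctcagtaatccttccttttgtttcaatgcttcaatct
Jarid2, chr13:44728484-44728743, plus strand: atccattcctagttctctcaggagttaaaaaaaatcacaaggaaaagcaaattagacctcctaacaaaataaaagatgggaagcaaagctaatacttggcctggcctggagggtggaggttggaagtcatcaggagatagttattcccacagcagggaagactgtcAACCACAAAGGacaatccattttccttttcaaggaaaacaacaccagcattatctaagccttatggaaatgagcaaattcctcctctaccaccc
Hjv, chr3:96497444-96497743, plus strand: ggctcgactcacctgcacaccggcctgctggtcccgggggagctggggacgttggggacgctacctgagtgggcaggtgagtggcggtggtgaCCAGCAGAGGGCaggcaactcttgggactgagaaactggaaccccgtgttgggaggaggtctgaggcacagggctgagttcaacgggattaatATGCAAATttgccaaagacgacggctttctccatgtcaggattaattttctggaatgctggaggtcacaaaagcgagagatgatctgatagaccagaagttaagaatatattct
Srcin1, chr11:97570653-97570952, plus strand: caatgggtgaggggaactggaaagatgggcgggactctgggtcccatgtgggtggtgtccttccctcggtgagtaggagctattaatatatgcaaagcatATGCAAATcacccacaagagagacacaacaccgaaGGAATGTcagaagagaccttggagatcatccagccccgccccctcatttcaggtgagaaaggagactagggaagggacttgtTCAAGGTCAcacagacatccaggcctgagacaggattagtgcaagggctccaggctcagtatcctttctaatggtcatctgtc
Hs3st3b1, chr11:63533657-63533881, plus strand: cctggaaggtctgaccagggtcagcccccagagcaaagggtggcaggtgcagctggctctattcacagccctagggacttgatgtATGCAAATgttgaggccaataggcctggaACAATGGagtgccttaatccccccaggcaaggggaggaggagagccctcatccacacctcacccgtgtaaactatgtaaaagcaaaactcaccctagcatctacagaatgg
Ttyh2, chr11:114692769-114692988, plus strand: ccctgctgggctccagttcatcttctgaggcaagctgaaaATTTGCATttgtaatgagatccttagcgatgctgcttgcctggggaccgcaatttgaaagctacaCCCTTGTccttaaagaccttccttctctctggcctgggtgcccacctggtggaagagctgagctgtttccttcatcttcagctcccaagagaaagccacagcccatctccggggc

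In the Ppp1r14a sequence the capitals are, from left to right, a SOX, a KLF and a STAT match. No positive fragment held all of them. The STAT match lies outside the central 200 bp in which motif matches were counted. The Mycn sequence holds a TEAD match and a pair of AP-1 matches, and none of the pluripotency motifs. In the second Jarid2 sequence a RUNX and a SOX match overlap. The Hjv sequence has a CTCF match followed by the octamer, which no positive fragment held together. The Srcin1 sequence has the octamer, a TEAD and an ESRRB match, all within its Medium fragment.

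The support for each region was thin. The 517 regions held 1233 different positive fragments, which is 3.37% of the 36551 different positive fragments of ES cells. Of the regions, 394 had 2 different fragments, 80 had 3, 21 had 4, 13 had 5, 7 had 6 and 2 had 7. The members with 2 fragments are those just inside the limit, and just outside it lay 5191 regions with exactly 1 positive fragment in ES cells and none later. Many fragments of a region had almost the same ends. When fragments with both ends within 5 bp of each other were taken as 1, 952 fragments were left and 353 regions (68.3%) still had 2 or more, while 164 did not.

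Few regions were seen in both transfections. Positive fragments came from replicate 1 alone in 345 regions, from replicate 2 alone in 145 and from both in 27 (5.22%), of which 1 had at least 2 fragments in each. A single library gave all fragments of 240 regions, 237 regions drew on 2 libraries and 40 on 3 or more, with 4 as the highest number. The members had a median width of 248 bp (70 to 774 bp), compared with 264 bp for all regions. The 5731 regions that had at least 2 positive fragments in ES cells and also a positive fragment later had a median width of 653 bp, but regions with more fragments span more bases and the rule bears on the number of fragments.

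The member nearest to Ppp1r14a, an inhibitor of myosin phosphatase, was the one with at least 2 fragments in each replicate. It spans chr7:29293518-29294217, 4548 bp downstream of the start site and between genes. Its 6 different positive fragments gave 0, 1 and 1 fragments in the Low, Medium and High lists of replicate 1 and 4, 2 and 0 in those of replicate 2. The 2 replicates covered it differently. The replicate 1 fragments lay mainly in its left part, whereas all fragments of replicate 2 had ends within 2 bp of each other, and the 6 fragments became 3 when near-identical ones were joined. The ES Negative lists held 1 fragment there in replicate 1 and 3 in replicate 2.

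The region in an intron of 0610009L18Rik (chr11:120350156-120350896, 1848 bp downstream of its start site) had 5 different positive fragments, all of which stayed separate after joining. The Medium list of replicate 1 held 3 of them, the High list of replicate 1 held 1 and the Medium list of replicate 2 held 1, and the other 3 positive ES lists held 0. The ES Negative list of replicate 1 held 2 fragments there and the HP Negative list of replicate 2 held 1. Here the evidence was spread along the region rather than stacked on 1 fragment.

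In an intron of Cavin1, which encodes a coat protein of caveolae, a member of 316 bp had 4 different positive fragments. Replicate 1 gave 0, 1 and 2 in Low, Medium and High, and replicate 2 gave 1, 0 and 1, which was the same fragment in both lists. The region was thus recovered in every gate over the 2 replicates. The ES Negative lists also held 1 fragment there in each replicate, in replicate 2 that same fragment. After joining, 2 fragments were left.

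The member nearest to Phc1, a subunit of Polycomb repressive complex 1, lies between genes at chr6:122355957-122356359, 15931 bp upstream of the start site. It had 1, 0 and 1 fragments in the Low, Medium and High lists of replicate 1 and 0, 0 and 1 in replicate 2. The other both-replicate members named by the same rule lay nearest to Gcgr, Ajap1, Fbxo2, Oxsm, Gpr20 and Csrp1, with 3, 3, 3, 2, 2 and 2 different positive fragments. Gcgr encodes the glucagon receptor, Fbxo2 a ubiquitin ligase subunit and Csrp1 a LIM-domain protein. These 6 lay between genes, at 4604 bp (Csrp1) to 306914 bp (Ajap1) from the nearest start site.

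Of the 10 regions with most fragments, 7 were supported by 1 library. An intron of Zcchc24 (chr14:25736330-25736510) had 7 different positive fragments, all in the Low list of replicate 2. An intron of Nxn, which encodes the redox protein nucleoredoxin, had 7 in a span of 85 bp, all in the High list of replicate 2, and the Negative list of the same replicate held 6 fragments there. Joining near-identical fragments left 3 at each of these. The members nearest to Mir12181, Sp2, Kcnf1, Flrt1 and Gm4668 had 6 each, again from 1 library apiece, and became 2 or 3 fragments. The region nearest to Gpc6 had 6 in each of 2 lists of replicate 2, Low and High, and 4 in Medium, and became 2. All 8 of these regions had fragments of 1 replicate alone, and each held 2 or 3 fragments once near-identical ones were joined. The region nearest to Slitrk1, just below them, had 5 fragments in the High list of replicate 2 within 91 bp.

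**Figure D1:**
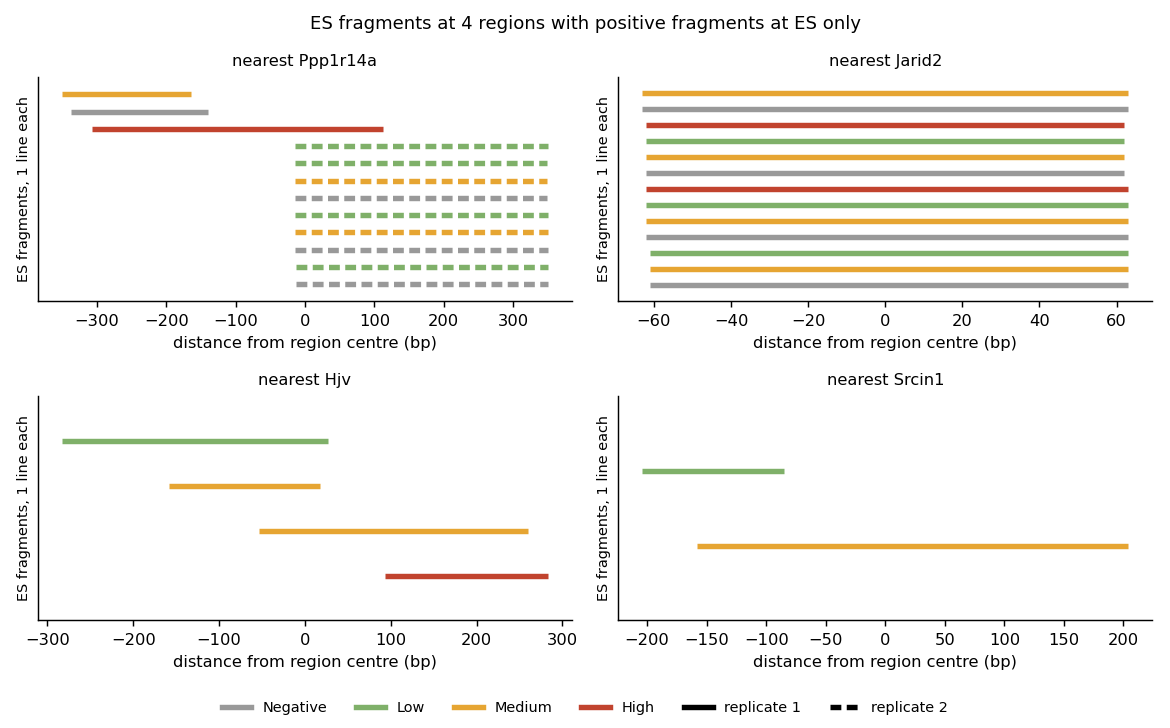
Fragments of ES cells at 4 ES-only regions, drawn by their distance in bp from the region centre, with 1 line for each fragment in a list, coloured by reporter gate, solid for replicate 1 and broken for replicate 2. At Ppp1r14a the 2 replicates cover different parts, at Jarid2 all fragments share their ends within a few bp, and at Hjv 4 separate fragments overlap in a chain.

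The reporter gates give a coarse level of activity, with fragments in the High gate driving most YFP. A High fragment was found in 325 of the regions (62.9%), a Medium one in 254 and a Low one in 240. For 121 regions all positive fragments were in High, for 70 in Low and for 60 in Medium, and 36 had fragments in all 3 gates. In replicate 1, 37.4% of the positive fragments of the members were in High, compared with 36.8% of all positive fragments of ES cells. In replicate 2 the share was 51.4%, compared with 42.5%, and the Medium share was 19.9%, compared with 40.9%. The 2 replicates did not give the same picture, and the difference from all positive fragments was not tested over 2 replicates.

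A library that stood apart touches the Medium value. Of the 4318 fragments of the ES Medium library of replicate 2, 2828 (65.5%) were also in the HE1 Low library of the same replicate, and 73.7% were in some positive list of a later stage. Such fragments cannot lie in members by the rule. Members took 2.15% of that library, 7.60% of ES Low and 5.35% of ES High of replicate 2, and 2.64%, 3.44% and 3.09% of ES Low, Medium and High of replicate 1. Without the ES Medium and HE1 Low libraries of replicate 2 there were 525 members.

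**Figure D2:**
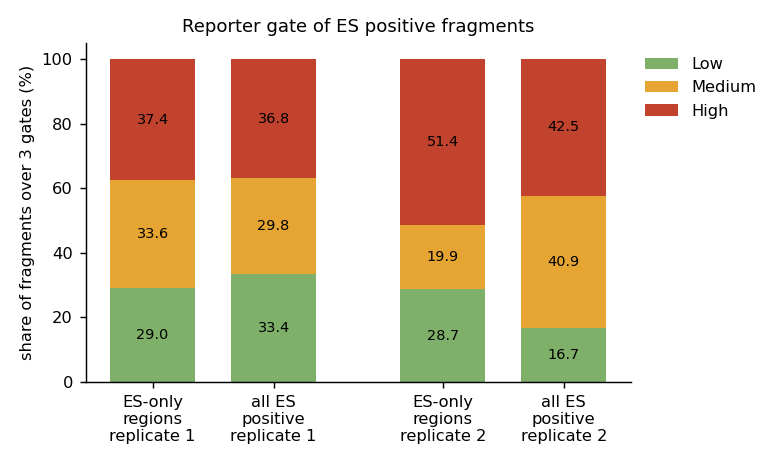
Share in percent of positive ES fragments in the Low, Medium and High reporter gates, for fragments in ES-only regions and for all positive fragments of ES cells, by replicate. High holds 37.4% against 36.8% in replicate 1 and 51.4% against 42.5% in replicate 2.

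By the same rule there were 717 regions for HB, 3118 for HE1, 520 for HE2 and 535 for HP, from 51015, 136536, 71837 and 44827 different positive fragments. When the positive fragments of every stage were thinned to the 36551 of ES cells, the number for ES cells was 704 ± 12.6 (SD over 20 draws), as fewer later fragments were left to exclude a region, and those for the other stages were 546, 687, 612 and 612. These SDs cover the draw alone.

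Whether ES activity was found again was asked of the replicate that the choice had not seen. The rule was applied to 1 replicate alone, and the chosen regions were looked up in the positive fragments of the other. The 185 regions chosen in replicate 2 held 0.458% of the positive ES fragments of replicate 1, and 0.370%, 0.290%, 0.291% and 0.315% of those of HB, HE1, HE2 and HP. The 400 regions chosen in replicate 1 held 0.355% of the positive ES fragments of replicate 2, and 0.213%, 0.190%, 0.202% and 0.154% at the later stages. ES cells thus had the highest share in both directions. The mean was 0.406 ± 0.0731% for ES (SD, n = 2) and 0.253 ± 0.0741% for the other stages (n = 8), so that ES exceeded the others by 0.154 percentage points (p = 0.0444 in a two-sided exact permutation test over 45 arrangements). Each share rests on few fragments, 127 for ES in replicate 1 and 32 in replicate 2.

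The same lookup counted by region did not place ES first. Of the 185 regions chosen in replicate 2, 14.1% had a positive ES fragment in replicate 1, but 16.8%, 18.4%, 16.8% and 15.7% had a positive fragment at HB, HE1, HE2 and HP. Of the 400 chosen in replicate 1, 5.00% were hit by ES in replicate 2, 5.75% by HB, 6.75% by HE1, 1.50% by HE2 and 2.00% by HP. The later sorts of replicate 1 had more positive fragments than its ES sort (27717), whereas HE2 and HP of replicate 2 had fewer (3471 and 5208) than ES (9020). Of the 26 regions hit by ES in replicate 1, 24 (92.3%) were also hit at a later stage of that replicate, and of the 20 hit by ES in replicate 2, 13 (65.0%) were. This left 2 and 7 regions that were hit by ES alone, beside 14 and 35 hit at later stages alone and 145 and 345 not hit. The difference in fragment share also depended on the rule. It was 0.0192 points with regions of at least 3 fragments (exact permutation p = 0.600), 0.134 with a 50 bp overlap for merging (p = 0.0889) and 0.242 when 1 fragment sufficed in the choosing replicate (p = 0.467).

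The Negative lists took part in merging fragments into regions but not in choosing members among them. In ES cells 0.937% and 1.81% of the Negative fragments of replicates 1 and 2 lay in members. At the later stages the shares ranged from 0.00725% (HE1, replicate 1) to 0.360% (HB, replicate 2), and no later value reached those of ES. For the stage-only regions of the later stages, the Negative share at their own stage exceeded all others in both replicates for HB and HE1. For HE2 and HP it did so in replicate 1 alone. The own shares in replicates 1 and 2 were 1.07% and 0.654% for HB (highest at another stage 0.613%) and 3.61% and 0.829% for HE1 (0.807%). They were 0.866% and 0.257% for HE2 (0.473%) and 0.426% and 0.0870% for HP (0.147%). The ES mean of 1.37 ± 0.619% (n = 2) exceeded the later mean of 0.114 ± 0.115% (n = 8) by 1.26 points (p = 0.0222 in a two-sided exact permutation test, the smallest this design can give). The 2 kinds of list are linked, however. Of the 148 Negative ES fragments in members, 59 (39.9%) were identical to a positive fragment of the same sort, and a region with a fragment in 1 gate of a sort tends to have one in another, so the choice of regions without later positive fragments also lowers their later Negative share. Without identical fragments the difference was 0.570 points (exact permutation p = 0.0222). The comparison free of that link, with regions chosen in 1 replicate and Negative lists of the other, was added after the data were seen. It gave 0.327 ± 0.0395% for ES (n = 2) and 0.249 ± 0.168% for the other stages (n = 8), a difference of 0.0787 points (exact permutation p = 0.556), with ES below HB, HE2 and HP in replicate 1 and above all of them in replicate 2.

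Seen by region, 99 members had a Negative fragment in ES cells and 43 at a later stage, with 16 in both, and 391 had none at all. A Negative fragment at a later stage was recovered there from cells without YFP. For 474 of the 517 members the later lists held no fragment of either kind. Whether these regions were inactive later or their clones were not recovered cannot be told apart. The paper also describes a filter for an ATAC peak, a site of open chromatin, at the matching stage. If the lists had passed it, later fragments without such a peak would be missing as well, which was not tested. Of all 75060 regions, 42.1% had a Negative fragment at a later stage.

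**Figure D3:**
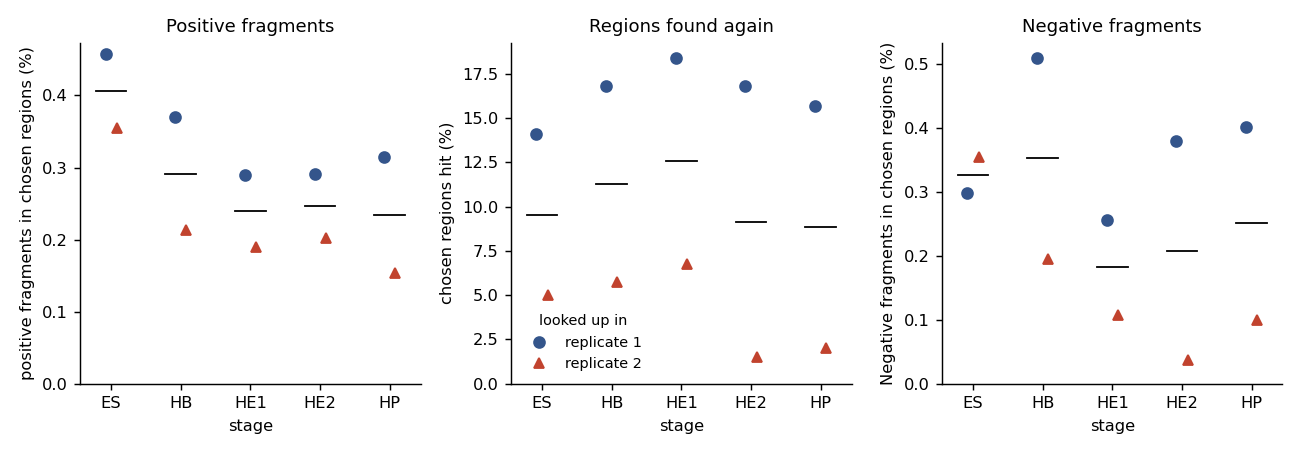
Lookup of regions chosen in 1 replicate in the libraries of the other, by stage, with circles for values in replicate 1, triangles for values in replicate 2 and bars for their mean. The left panel gives the percent of positive fragments that lie in chosen regions, the middle panel the percent of chosen regions hit by a positive fragment, and the right panel the percent of Negative fragments in chosen regions. ES is highest in both replicates in the left panel only.

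The region centre was in an intron for 227 (43.9%), in an exon for 28 and between genes for 262 (50.7%), compared with 46.3%, 5.16% and 48.5% of all regions. The median distance to the nearest curated start site was 21955 bp, compared with 24857 bp for all regions, 4 members (0.774%, compared with 0.553% of all regions) were within 1500 bp and 76 (14.7%, compared with 16.8%) were beyond 100000 bp. The mean GC content of the 200 bp around the centre, which runs past the ends of narrower regions, was 51.6%. This window held 3.20 CpG and 18.7% of bases masked as repeats, compared with 49.5% GC, 3.04 CpG and 16.8% masked in all regions. The 5731 regions also positive later had 55.5% GC and 6.15 CpG. The 517 members had 500 different nearest genes, of which 16 had more than 1 member, and Zmynd8, a chromatin reader, had 3.

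Of 28 genes on a naive pluripotency list, 5 had a member, with 6 members among the 63 ES-positive regions nearest to genes of that list (9.52%, compared with 2.98% of all ES-positive regions). The list was put together with results of these data known, so its share is a description. None of these members was nearest to Pou5f1, Sox2, Nanog, Klf4 or Esrrb. They lay near Jarid2, a Polycomb cofactor, with 2 members, and near Mycn, a growth-promoting transcription factor, Tcl1, an AKT coactivator, Gbx2, a homeobox factor downstream of LIF, and Fgf4, the growth factor that ES cells make and that drives them out of the naive state.

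The first Jarid2 region (chr13:44678408-44678533, 52303 bp upstream of the start site) had 4 different positive fragments of replicate 1, with 3, 4 and 2 in the Low, Medium and High lists and 0 in the lists of replicate 2. Its 4 fragments became 1 after joining, and the Negative list of the same replicate held all 4. The same near-identical set was thus present in all 4 gates. The second Jarid2 region (chr13:44728484-44728743), 2160 bp upstream, had 1 Medium and 1 High fragment of replicate 1, with different ends. The Fgf4 region (chr7:144851301-144851884, 9793 bp upstream) and the Mycn region (chr12:12983126-12983299, 41377 bp upstream) had the same pattern, 1 Medium and 1 High fragment of replicate 1. Tcl1 had 2 Low fragments of replicate 1 and Gbx2 had 2 Low fragments of replicate 2, and each pair became 1 after joining. No region near a gene of the list was seen in both replicates.

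The other lists gave 5 members. Near Wnt and FGF-ERK pathway genes there were 2 among 55 ES-positive regions, at Dusp6, an ERK phosphatase, and Axin2, a Wnt target and inhibitor. Near blood and endothelial genes there were 2 among 52, at Lyl1, a blood bHLH factor, and Cdh5, which encodes VE-cadherin. Near mesoderm and heart genes there was 1 among 31, at Gsc, an organiser homeobox factor. The lists for formative and primed pluripotency, for LIF, STAT3, BMP and Id genes and for neuronal synapse genes had 0 members among 36, 35 and 36 ES-positive regions. These counts of 0 allow a share of up to 8.33%, 8.57% and 8.33%, which is above the 2.98% of all ES-positive regions, so no shortage was detectable.

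**Figure D4:**
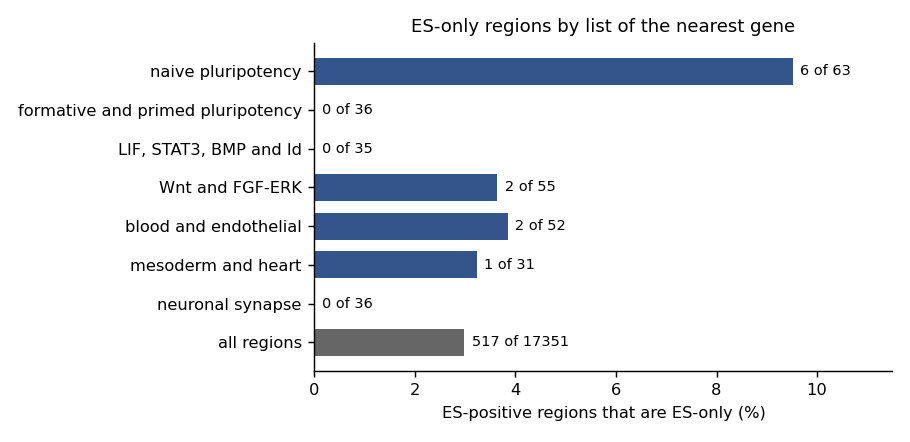
Percent of ES-positive regions that were ES-only, by list of the nearest gene, with the number of ES-only regions of all ES-positive regions beside each bar. The naive pluripotency list stands at 6 of 63, all regions at 517 of 17351, and 3 lists at 0.

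The motif content of the members was compared with that of the stage-only regions of the other 4 stages, which the rule did not fix. For the pluripotency factors the motifs were ATGCAAAT for OCT, CCACACCC for KLF, TCAAGGTCA for ESRRB and, with any base at N, ACAANGG for SOX. For the signalling factors they were TTCCNGGAA for STAT, which answers to LIF, and ATCAAAG for TCF, which answers to Wnt. The AP-1 motif was TGANTCA, which with any base at N is wider than the site of FOS and JUN. For the later stages the GATA motif was AGATAAG, the PU.1 motif was GAGGAAGT, and the RUNX motif, read by the RUNX1 factor of blood cells, was TGTGGTT. The TEAD motif, read by the partners of YAP in the HIPPO pathway, was GGAATGT. The core motif of CTCF, which marks boundaries of chromatin domains, was searched too. All were searched on both strands of the 200 bp around the region centre. In a region narrower than 200 bp this window also takes in bases outside the region. The first quartile of member width was 186 bp. Members with a match are counted by this window. A match is a string of letters and not a bound site, and matches of different motifs may overlap. With 7 further measures of composition and position there were 19 features, and 0 of them passed an adjusted p of 0.05 (two-sided exact permutation test over 45 arrangements with Benjamini-Hochberg adjustment, lowest adjusted p = 0.281), while 3 had an unadjusted p under 0.05.

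The OCT octamer was 1 of these 3. It was present in the windows of 13 members (2.51%), compared with 1.08% of all regions. Among the stage-only sets it was found in 10 of 372 (2.69%) and 3 of 172 (1.74%) ES-only regions with a fragment in replicate 1 and 2. At the later stages the share was 1.67% and 0.364% for HB, 0.707% and 1.04% for HE1, 0.851% and 0 of 53 for HE2, and 0 of 275 and 0.743% for HP, where the counts of 0 allow up to 5.66% and 1.09%. ES was highest in both replicates. The mean was 2.22 ± 0.667% for ES (n = 2) and 0.673 ± 0.558% for the others (n = 8, exact permutation p = 0.0222, adjusted p = 0.281). The difference of 1.54 points became 1.31 with the whole region in place of the window. It became 0.457 after near-identical fragments were joined and 0.210 for regions with at least 3 fragments, so it rests on few regions.

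The 13 octamer regions lay nearest to Hjv, Gm14010, Dock5, Hs3st3b1, Srcin1, Ttyh2, Gm14015, 1110002E22Rik, Tbc1d2b, Btbd11, Atp5g3, Tnfrsf1b and Wwc2, and none of these is on the pluripotency list. At Atp5g3 the match lay in the 200 bp window but outside the 75 bp region. All 13 had positive fragments of 1 replicate alone. The Hjv region (chr3:96497311-96497876) had most fragments, with 1, 2 and 1 in the Low, Medium and High lists of replicate 1. After joining, 4 different fragments were left. Of these, only the Medium fragment from -53 to 260 bp of the region centre held the octamer, at 36 to 44 bp. Srcin1 had 1 Low and 1 Medium fragment, Hs3st3b1 1 Low and 1 High, and Ttyh2 1 Low and 1 Medium, all of replicate 1. At Srcin1 the octamer lay in the Medium fragment and outside the Low one. These regions are named because of their match and not for their values.

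The KLF and GATA matches were the other 2. KLF, the CACCC-type element read by Kruppel-like factors, was found in 23 members (4.45%, compared with 2.29% of all regions). Its share was 4.84% and 4.65% in ES-only regions of replicates 1 and 2 and ranged from 1.45% to 4.36% in the other stage-only sets, all below ES (difference 1.93 points, exact permutation p = 0.0444, adjusted p = 0.281). GATA, the element of the GATA factors of blood and mesoderm, was found in 8 members (1.55%, compared with 4.11% of all regions). Its share was 1.88% and 1.16% in ES-only regions and 2.60% to 7.15% in the other sets, and ES was lowest in both replicates (difference -2.98 points, exact permutation p = 0.0444, adjusted p = 0.281). None of these 3 passed the adjustment over the 19 features, which in this design could be passed only if at least 9 features reached the smallest p of 0.0222 together.

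SOX and ESRRB did not stand apart. SOX matches were in 64 members (12.4%, compared with 11.9% of all regions), with 14.5% and 9.88% in the ES-only regions of the 2 replicates and 7.27% to 16.1% elsewhere. ESRRB matches were in the windows of 5 members (0.967%, compared with 0.456%), all of them in replicate 1 when counted by replicate. At Slc25a5 the match lay outside the 75 bp region. AP-1 was in 42 members (8.12%, compared with 9.27% of all regions), RUNX in 25 (4.84%, compared with 5.23%), PU.1 in 12 (2.32%, compared with 2.50%) and STAT in 1 (0.193%, compared with 0.858%). TEAD was in 29 (5.61%, compared with 3.76%), TCF in 18 (3.48%, compared with 3.04%) and CTCF in 13 (2.51%, compared with 2.01%). GC content of the stage-only regions differed by 1.33 points between ES and the other stages (exact permutation p = 0.444).

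**Figure D5:**
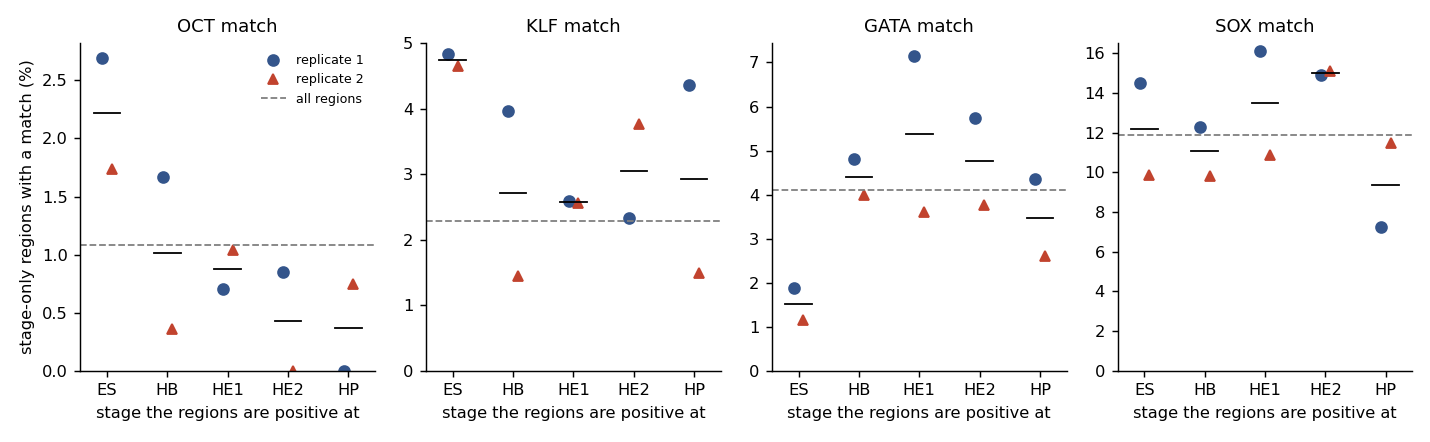
Percent of stage-only regions whose central 200 bp hold a match, by the stage at which the regions were positive, for the OCT, KLF, GATA and SOX motifs, with circles for replicate 1, triangles for replicate 2, bars for their mean and a broken line for all regions. ES-only regions are highest for OCT and KLF and lowest for GATA in both replicates, and lie within the other stages for SOX.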

How the data were processed

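The data were 40 lists of cloned fragments, 1 for each of 5 stages, 4 reporter gates and 2 replicates. The authors used Trim Galore on the read pairs and Bowtie2 with the mm10 build, kept properly paired reads of high mapping quality with SAMtools, used bedtools for filtering and deposited the coordinates of unique fragments, in base pairs, with no counts. Versions of these tools for the reporter libraries are not given in the sources used here. The described filters also include a background library, open chromatin, an ATAC peak at the matching stage and distance from promoters. The sources do not say which the lists had passed. Of all regions, 0.553% had a centre within 1500 bp of a start site, so fragments near promoters were almost absent from the lists. The distances to start sites given here are those of such lists. Inserts were amplified by PCR without molecular identifiers, so near-identical fragments need not be separate clones, and the limit given with a count of 0, which is 3 counts of the total, covers the error of counting alone.

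Positive fragments of a sort were the different fragments of its Low, Medium and High lists. Regions, sequences, start sites and motif matches came from GRCm38.p6 (the assembly named mm10) and curated RefSeq transcripts. No fragment ran past a chromosome end. A region was named by its nearest start site, which need not be its target. Named were the 10 members with most fragments, members with fragments in both replicates (up to 10) and members near genes of 7 lists. Octamer regions were named after their values were seen. Members and lists were chosen with earlier results of these data known.

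ES values were set against the 8 values of the later stages by a two-sided exact permutation test (45 arrangements, smallest p 0.0222), checked on simulated data. Features were adjusted by the Benjamini-Hochberg method. The replicate numbers pair the samples: each replicate was 1 transfected pool that was later differentiated, libraries of the same number shared 12.5% of the fragments of the smaller library on average (0.597% with different numbers), and the deviations of same-numbered libraries correlated in all 190 pairs of groups (lowest 0.15, median 0.31, over 5742 regions with at least 20 fragments). The stages of a replicate are thus not independent. Python 3.11.15, pandas 2.3.3, numpy 2.4.6, scipy 1.17.1 and pysam 0.24.0 were used.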

Additional observations from a re-analysis of the deposited data

How the results depend on the processing

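The number of ES-only regions was 123 with at least 3 fragments, 5708 with at least 1, 704 after thinning, 525 without the ES Medium and HE1 Low libraries of replicate 2, 353 with near-identical fragments joined, 517 with a 50 bp overlap and 185 to 400 with 1 replicate left out. With the values of 1 replicate alone, and the regions not chosen anew, the Negative difference ranged from 0.897 to 1.62 percentage points. The lookup difference ranged from 0.142 to 0.165. With 1 ES value neither could pass the threshold. The Negative difference was 0.498 with at least 3 fragments and 0.765 with near-identical fragments joined, and the lookup difference was 0.0911 with them joined, all past the threshold. These Negative values, and the one with the block below, keep the link between Negative and positive lists of a sort. The choice of members thus partly fixes them, and their passing says little about stability. The lookup difference was 0.0192 with at least 3 fragments, 0.134 with a 50 bp overlap and 0.242 with 1 fragment in the choosing replicate. None of these passed the threshold, while the lookup difference of 0.204 without those 2 libraries did. The Negative difference with regions chosen in the other replicate, free of that link, was 0.0787 (exact permutation p = 0.556). With the replicate block (25 arrangements) the differences of 1.26 and 0.154 points both had an exact permutation p of 0.0400, the smallest possible, and the block changed no call. The count of features past the threshold was 0 in each of the 7 alternatives run for features. However, with the values of 1 replicate alone no feature could pass. With the block 16 would have had to reach the smallest p together, so these counts say nothing about stability.

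Of the 19 features, 14 changed sign under an alternative and 5 (GC content, OCT, KLF, STAT and GATA) did not. ES minus other stages, with at least 3 fragments, was -0.176 CpG, and in percentage points -0.809 for masked bases, 1.35 for introns, -0.748 between genes, 0.0837 for RUNX, -1.92 for PU.1 and -2.84 for TEAD. With near-identical fragments joined it was -0.0531 CpG, -5327 bp of distance, and in points -0.127 for masked bases, 0.439 for exons, 3.90 for SOX, -0.344 for PU.1 and -0.985 for TEAD. With a 50 bp overlap it was 0.463 for exons, -76.4 bp of distance and 0.0572 for SOX, and with the whole region 0.713 for RUNX and -0.522 for PU.1. The values of 1 replicate alone, for the same regions, gave CpG -0.166 to 0.314, exons -2.67 to 1.77 and distance -272 to 713 bp. For motifs they gave SOX -1.94 to 1.86, ESRRB -0.381 to 0.941, TCF -1.41 to 0.796, AP-1 -5.49 to 0.494, RUNX -2.47 to 1.68, PU.1 -2.30 to 2.52 and CTCF -0.390 to 0.871. The causes were not tested. With 2 ES values, a small difference cannot be told from the spread.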
